A study of Mus musculus with 2 samples.

Results

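The genes described are 10 components of the inflammasome and of the IL-1 and IL-18 branches that it feeds: Nlrp3, Nlrc4, Mefv, Pycard, Casp1, Gsdmd, Il1b, Il1rn, Il18 and Il18bp. They were chosen by name from 21887 protein-coding genes, and all 10 were found in the gene table; the choice set no threshold on a measured value. Chromatin accessibility was profiled in single nuclei of liver macrophage preparations from 1 Spta sph/sph mouse and 1 Spta wt/wt littermate, both untreated males of 8 to 10 weeks. The cells were non-parenchymal liver cells pulled out with beads against F4/80, a macrophage surface protein. Spta encodes an alpha-spectrin of the red cell membrane skeleton, and the study asks how the uptake of red cells relates to the inflammatory state of liver macrophages. The 2 libraries are told apart by the ending of each barcode, which nothing in the labels or files links to a mouse. All results are therefore of library 2 or library 1, and genotypes cannot be compared. With 1 library per genotype there was no replicate check and no test, and all 95% intervals cover counting error only.

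Inflammasomes are complexes in the cytosol that form when a sensor such as NLRP3, NLRC4 or pyrin detects microbial products or cell damage. The adaptor ASC links the sensor to caspase-1, which cleaves the precursors of IL-1β and IL-18 and opens gasdermin D, a protein that forms pores in the membrane. IL-1 receptor antagonist blocks the IL-1 receptor, and IL-18 binding protein captures secreted IL-18. Kupffer cells are the resident macrophages of the liver and are known to carry much of this machinery. What was measured here is open DNA at the genes, not their RNA or protein.

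Library 2 held 21656110 fragments and library 1 held 11401694. After filtering, 562 of 575 called cells remained in library 2 and 609 of 637 in library 1, and the libraries shared 0 cell barcodes. Library 2 differed in quality: its cells had a median of 53.7% of fragments in peaks, against 72.1% in library 1, and 12.1% of its fragments lay in pile-ups, stretches where 1 cell holds far more fragments than its depth predicts, against 0.651%. Clustering, with the surroundings of the genes described left out, gave 181 Kupffer-like cells in library 2 and 321 in library 1, 136 and 126 liver endothelial-like cells, 26 and 68 stellate or fibroblast-like cells, and 1 and 28 hepatocyte-like cells. Cluster 3, of 136 cells in library 2 and 14 in library 1, got no name from the markers. An unnamed cluster 4 held 82 cells in library 2 and 52 in library 1. It scored highest for monocyte markers, but no monocyte marker was among its 10 leading genes, so it has no cell type name here. Different clusters hold most of the Kupffer-like class: 175 of its 181 cells in library 2 were in cluster 2, while in library 1 217 were in cluster 1 and 90 in cluster 6. The names of clusters 2 and 6 rest on leading genes with pile-ups masked, Marco for cluster 2 and Clec4f for cluster 6, since neither had a Kupffer marker among its 10 leading genes with pile-ups kept. All 15 Kupffer markers had fragments in the class in both libraries, with at least 77 each in library 2 and 179 in library 1.

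RefSeq promoter sequences (GRCm38.p6, 250 bases before to 50 after each start) were at hand for 9 of the 10 genes, 12 promoters in all, and not for Gsdmd. The 6 shown were picked, after the values were seen, because the results below describe how open those starts were. They were searched on both strands for motifs of PU.1, a master regulator of macrophages, of AP-1 and of the TATA box, spelled out after them, and the matches, none of which overlaps another, are in capitals, as the reverse complement where the match is on the other strand. Each runs 5′ to 3′ on the strand of its gene.
Nlrp3, second start, chr11:59542436-59542735, + strand: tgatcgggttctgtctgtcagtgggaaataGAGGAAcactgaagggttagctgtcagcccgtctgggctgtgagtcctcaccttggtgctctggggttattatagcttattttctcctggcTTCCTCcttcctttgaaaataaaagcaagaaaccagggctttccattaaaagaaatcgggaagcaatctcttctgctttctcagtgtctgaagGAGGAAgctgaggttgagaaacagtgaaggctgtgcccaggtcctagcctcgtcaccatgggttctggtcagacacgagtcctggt
Mefv, chr16:3718075-3718374, - strand: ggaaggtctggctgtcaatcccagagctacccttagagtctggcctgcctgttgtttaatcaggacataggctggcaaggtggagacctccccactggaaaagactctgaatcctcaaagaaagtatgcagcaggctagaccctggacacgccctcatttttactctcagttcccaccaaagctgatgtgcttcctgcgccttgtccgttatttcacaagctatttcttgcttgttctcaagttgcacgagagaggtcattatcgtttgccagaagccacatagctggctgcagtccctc
Il1b, chr2:129371090-129371389, - strand: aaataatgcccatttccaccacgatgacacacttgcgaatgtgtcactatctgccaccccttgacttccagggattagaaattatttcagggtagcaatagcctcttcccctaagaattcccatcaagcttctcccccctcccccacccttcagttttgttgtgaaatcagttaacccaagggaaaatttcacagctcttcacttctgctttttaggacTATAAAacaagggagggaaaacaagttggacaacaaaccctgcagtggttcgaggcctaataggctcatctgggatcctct
Il1rn, first start, chr2:24336610-24336909, + strand: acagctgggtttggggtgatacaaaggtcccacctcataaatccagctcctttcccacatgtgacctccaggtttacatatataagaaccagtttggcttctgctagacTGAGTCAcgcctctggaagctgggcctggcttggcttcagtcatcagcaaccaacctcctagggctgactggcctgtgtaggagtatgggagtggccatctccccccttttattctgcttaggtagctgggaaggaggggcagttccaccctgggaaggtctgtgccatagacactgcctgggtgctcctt
Il1rn, internal start, chr2:24345041-24345340, + strand: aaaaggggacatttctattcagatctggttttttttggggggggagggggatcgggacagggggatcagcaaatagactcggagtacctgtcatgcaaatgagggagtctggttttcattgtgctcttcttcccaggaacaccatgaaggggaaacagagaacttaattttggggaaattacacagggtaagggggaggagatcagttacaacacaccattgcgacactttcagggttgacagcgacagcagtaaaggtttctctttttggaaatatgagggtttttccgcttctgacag
Il18, chr9:50554450-50554749, + strand: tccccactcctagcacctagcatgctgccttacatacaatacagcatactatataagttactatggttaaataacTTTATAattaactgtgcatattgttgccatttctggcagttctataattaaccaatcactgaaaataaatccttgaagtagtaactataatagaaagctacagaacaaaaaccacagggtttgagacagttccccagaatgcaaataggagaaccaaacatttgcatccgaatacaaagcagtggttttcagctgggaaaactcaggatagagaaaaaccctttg

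The PU.1 motif, GAGGAA, was found in 3 of the 12 promoters, those of Pycard, Casp1 and the second start of Nlrp3, against 28.3% of all 32851 promoters of this length. The Nlrp3 promoter holds 3 matches. The AP-1 motif, TGANTCA, was found in 1 of 12, the first start of Il1rn at -141, against 7.81% of all promoters. The TATA box, TATAAA, was found in 3 of 12, among them Il1b at -31, against 13.6%. These are matches of letters and not measured binding.

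Among the sensors, Nlrp3 (chr11:59541569-59566955, + strand), which responds to loss of potassium and to many danger signals, was more open in Kupffer-like cells than in endothelial-like cells. Its window, the gene body with 2 kb on both sides, held 61.2 CPM (from 52.1 to 71.4) in Kupffer-like cells of library 2 and 93.7 CPM (from 85.8 to 102) in those of library 1. CPM is the share of all fragments of the class that fell in the window, scaled to parts per 1e+06. Endothelial-like cells had 14.7 CPM in library 2, from 30 fragments, and 26.1 CPM in library 1, from 42. The intervals of the classes did not overlap in either library. The unnamed cluster 3, of 136 cells in library 2 and 14 in library 1, had 33.3 CPM (from 28.4 to 38.8) and 37.6 CPM (from 17.2 to 71.4). Its cells had medians of 34.4% and 30.2% of fragments in peaks, and 16.8% and 4.15% of its fragments lay in pile-ups. Of its 165 Nlrp3 fragments in library 2, 34 came from 1 cell. A fragment in the window was seen in 42.5% of Kupffer-like cells of library 2 and 68.8% of those of library 1, and at 5000 fragments per cell in 19.9% and 32.9%. Nlrp3 has 2 annotated starts, and the second was the more open: within 500 bp of it there were 46 fragments in Kupffer-like cells of library 2 and 133 in library 1, against 1 and 6 in endothelial-like cells. Around the first start the counts were 29 and 90 in Kupffer-like cells, against 8 and 13 in endothelial-like cells. Cluster 4 was close to Kupffer-like cells over the window, with 58.0 CPM (from 47.6 to 69.9) in library 2 and 96.9 CPM (from 76.3 to 121) in library 1. Within 500 bp of the second start it had 17.0 and 40.8 CPM, against 17.5 and 24.1 CPM in Kupffer-like cells. The log2 ratios of Kupffer-like over cluster 4 there were 0.23 (-0.44 to 0.94) and -0.67 (-1.22 to -0.05).

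Nlrc4 (chr17:74426255-74459144, - strand), which with the NAIP proteins senses bacterial flagellin, was also much more open in Kupffer-like cells than in endothelial-like cells. Its level in Kupffer-like cells was 91.6 CPM (from 80.4 to 104) in library 2 and 85.4 CPM (from 77.9 to 93.5) in library 1. Endothelial-like cells had 11.3 CPM (from 7.15 to 16.9) in library 2 and 8.72 CPM (from 4.77 to 14.6) in library 1, far below. One Kupffer-like cell of library 2 gave 41 of the 241 fragments, and without it the level was 76.6 CPM. Mefv (chr16:3706974-3718211, - strand), the gene of the sensor pyrin, had 20.1 CPM (from 15.1 to 26.4) in Kupffer-like cells of library 2 and 41.1 CPM (from 35.9 to 46.8) in those of library 1, against 7.85 CPM (from 4.49 to 12.7) and 6.23 CPM (from 2.99 to 11.4) in endothelial-like cells. Of the 16 fragments in endothelial-like cells of library 2, 10 came from 1 cell.

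Over whole windows, the adaptor and the executioners were not past 1.5-fold apart between these classes where fragments allowed a comparison. Pycard (chr7:127991373-127993867, - strand), the gene of ASC, had 5.32 CPM (from 2.91 to 8.93) in Kupffer-like cells of library 2 and 14.7 CPM (from 11.6 to 18.2) in those of library 1. In endothelial-like cells it had 10.3 CPM (from 6.38 to 15.7) and 13.7 CPM (from 8.58 to 20.7), with intervals that overlap those of Kupffer-like cells. Casp1 (chr9:5298517-5307281, + strand) had 42.6 CPM (from 35.1 to 51.2) in Kupffer-like cells of library 2 and 47.0 CPM (from 41.5 to 53.1) in library 1, against 28.9 CPM (from 22.0 to 37.3) and 48.6 CPM (from 38.4 to 60.6) in endothelial-like cells. The Casp1 window runs into Casp4, the gene of a caspase that senses bacterial lipopolysaccharide, which took 12.9% of the Kupffer-like fragments. Within 500 bp of the Casp1 start there were 38 fragments in Kupffer-like cells of library 2 and 106 in library 1, against 14 and 26 in endothelial-like cells. The log2 ratio there, relative to the median gene, was 1.02 (0.13 to 2.05) in library 2, past 1.5-fold, and 0.22 in library 1. Gsdmd (chr15:75862144-75867408) had 8.36 CPM (from 5.24 to 12.7) in Kupffer-like cells of library 2 and 14.7 CPM (from 11.6 to 18.2) in library 1, with 11.3 CPM (from 7.15 to 16.9) and 15.6 CPM (from 10.1 to 23.0) in endothelial-like cells. In hepatocyte-like cells of library 1 Casp1 had 1 fragment, 2.21 CPM (from 0.0559 to 12.3).

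Of the IL-1 pair, Il1b (chr2:129364569-129371164, - strand), the main secreted IL-1 of macrophages, had 16.7 CPM (from 12.2 to 22.5) in Kupffer-like cells of library 2 and 24.1 CPM (from 20.2 to 28.5) in those of library 1. Cluster 4 had point values above these, 27.1 CPM (from 20.2 to 35.7) and 37.0 CPM (from 24.8 to 53.1), and the intervals overlapped those of Kupffer-like cells. Endothelial-like cells had 4.42 CPM (from 2.02 to 8.38) in library 2 and 3.11 CPM (from 1.01 to 7.26) in library 1. Of the 9 fragments in endothelial-like cells of library 2, 7 came from 1 cell, all in a pile-up, and without it the level was 0.999 CPM. Il1rn (chr2:24336860-24351491, + strand), the antagonist, had 12.5 CPM (from 8.63 to 17.6) in Kupffer-like cells of library 2 and 31.1 CPM (from 26.6 to 36.1) in library 1, against 2.45 CPM (from 0.796 to 5.72) and 2.49 CPM (from 0.679 to 6.38) in endothelial-like cells. Its highest level was in the hepatocyte-like cells of library 1, at 66.3 CPM (from 44.7 to 94.6), from 30 fragments. The first annotated start of Il1rn held 0 fragments in Kupffer-like cells of both libraries. The internal start shown above held 12 in library 2 and 81 in library 1, with 14 in hepatocyte-like cells of library 1. Scaled to the fragments of each class, these were 4.56 and 14.7 CPM in Kupffer-like cells and 30.9 CPM in hepatocyte-like cells.

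Il18 (chr9:50554700-50581841, + strand), a cytokine that drives interferon gamma release, had 32.3 CPM (from 25.8 to 40.0) in Kupffer-like cells of library 2 and 64.6 CPM (from 58.1 to 71.7) in those of library 1. Endothelial-like cells had 3.92 CPM (from 1.69 to 7.73) in library 2 and 6.23 CPM (from 2.99 to 11.4) in library 1. The hepatocyte-like cells of library 1 had 70.7 CPM (from 48.4 to 99.8), from 32 fragments, and the interval overlapped that of Kupffer-like cells of the same library. The hepatocyte-like fragments lay in part elsewhere in the gene: a 500 bp bin 7.2 kb inside it, chr9:50561700-50562199, held 15 fragments from 8 hepatocyte-like cells and 0 in Kupffer-like cells, cluster 4 and endothelial-like cells of both libraries. Of the 28 hepatocyte-like cells of library 1, 11 were marked as doublets. Of the Kupffer-like fragments in the Il18 window, 49.3% lay over the neighbours Bco2 and Tex12. Il18bp (chr7:102015074-102018232, - strand), the inhibitor, had 22.8 CPM (from 17.4 to 29.4) in Kupffer-like cells of library 2 and 38.5 CPM (from 33.5 to 44.1) in library 1, against 9.81 CPM (from 5.99 to 15.2) and 16.8 CPM (from 11.1 to 24.5) in endothelial-like cells. Its window also overlaps Numa1 and Rnf121, with 34.8% of the Kupffer-like fragments.

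**Figure D1:**
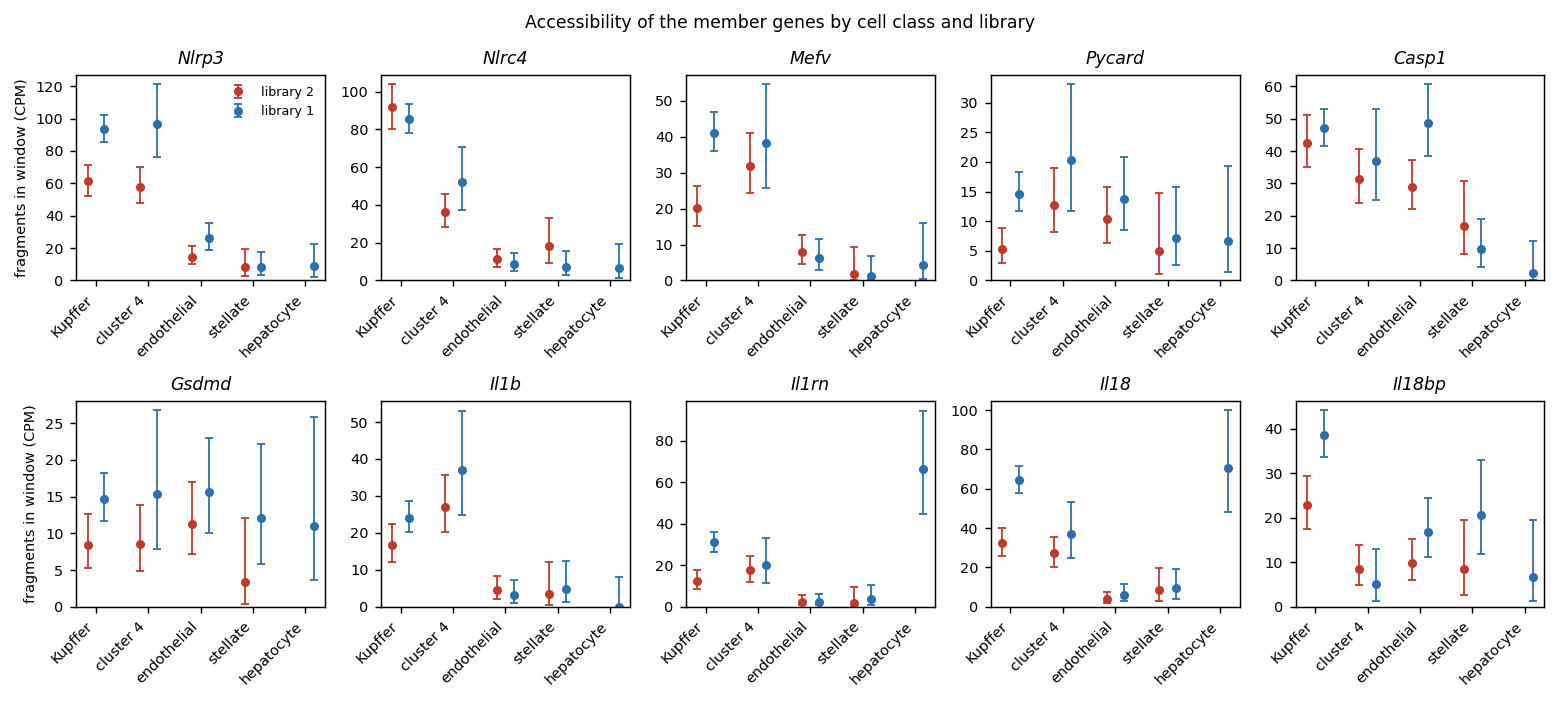
Fragments in the window of each gene (CPM, vertical axis from 0) by cell class, with library 2 in red left of library 1 in blue and bars for the exact Poisson interval; hepatocyte-like cells are shown for library 1 alone because library 2 had 1. Nlrp3, Nlrc4, Mefv, Il1b and Il18 stand high in Kupffer-like cells and cluster 4, and Il1rn and Il18 reach 66.3 and 70.7 CPM in hepatocyte-like cells.

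Over the 10 genes together, windows held 314 CPM (from 293 to 336) in Kupffer-like cells of library 2 and 455 CPM (from 437 to 473) in those of library 1, with 259 and 359 CPM in cluster 4, 105 and 148 CPM in endothelial-like cells and 75.4 and 84.4 CPM in stellate or fibroblast-like cells. The hepatocyte-like cells of library 1 had 183 CPM (from 146 to 227), of which Il1rn and Il18 made up most. In stellate or fibroblast-like cells single genes had between 1.68 and 18.4 CPM in library 2 and between 1.21 and 20.5 CPM in library 1, with Il18bp at the upper end of library 1. Within the Kupffer-like class the clusters were close for some genes and apart for others. Nlrc4 had 89.7 CPM in cluster 2 of library 2, and in library 1 it had 84.7 CPM in cluster 1 and 86.7 CPM in cluster 6. Il18 had 29.5 CPM in cluster 2 of library 2, below the 66.2 CPM of cluster 1 and the 62.0 CPM of cluster 6 in library 1. Mefv had 20.6 CPM in cluster 2 of library 2. In library 1 it had 34.5 CPM (from 28.0 to 42.0) in cluster 1 and 49.3 CPM (from 41.1 to 58.6) in cluster 6, with intervals that overlap. Of the cluster 6 cells of library 1, 30 of 90 were marked as doublets, against 6 of 217 in cluster 1. Median fragments per cell were 27548 in cluster 6 and 13576 in cluster 1.

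Scaled by window length, Casp1 and Il18bp led in Kupffer-like cells. Their levels per kb of window were 3.34 and 3.19 CPM per kb in library 2, and 3.69 and 5.38 in library 1. Il1rn was lowest in library 2 with 0.673 CPM per kb and Gsdmd lowest in library 1 with 1.58. Neighbouring genes share fragments with the Casp1 and Il18bp windows, as given above.

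To compare classes, each log2 ratio was set relative to the median gene, and a gene with at least 50 fragments over both groups was counted as higher or lower past 1.5-fold. In library 2, 6 of the 7 genes with enough fragments were higher in Kupffer-like than in endothelial-like cells and 0 were lower, where 19.7% of all genes with enough fragments were higher and 20.3% lower. In library 1, 7 of 10 were higher and 0 lower, where 20.8% of all genes were higher and 17.5% lower. The median over the genes tested was 1.84 in library 2 and 2.24 in library 1, against 0 for all genes by construction. The log2 ratio of Nlrc4 was 2.97 (from 2.38 to 3.68) for library 2 and 3.24 (from 2.53 to 4.17) for library 1. Il18 had 2.94 and 3.31, Nlrp3 2.01 and 1.83, Il1b 1.84 and 2.82 (3.47 in library 2 with pile-ups masked, then under 50 fragments), Mefv 1.31 and 2.65, and Il18bp 1.17 and 1.17. Il1rn reached 3.48 (2.26 to 5.53) in library 1 and had too few fragments in library 2. Casp1, at 0.53 in library 2 and -0.05 in library 1, Pycard, at 0.07 in library 1, and Gsdmd, at -0.11 in library 1, were neither. Pycard and Gsdmd had under 50 fragments in library 2. Without the cell of most fragments at each gene, 5 of 6 were higher in library 2. Of the 15 Kupffer markers, 13 were higher in library 2 and 14 in library 1, but these named the class. In Kupffer-like cells the 14 endothelial markers summed to 489 CPM in library 2, or 417 CPM with pile-ups masked, and 481 CPM in library 1, with no marker at 0, and their part in the ratios was not tested.

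Against cluster 4, the Kupffer-like class stood apart at fewer genes. In library 2, 3 of 8 were higher and 0 lower, where 16.8% of all genes were higher and 16.5% lower. In library 1, 4 of 10 were higher and 0 lower, where 14.2% and 10.1% of all genes were. The log2 ratio of Nlrc4 was 1.53 (from 1.15 to 1.95) for library 2 and 0.80 (from 0.35 to 1.31) for library 1, and Il18bp had 1.59 (0.81 to 2.52) and 2.86 (1.65 to 4.91). The intervals of both genes lay above 0. Il18 had 0.45 and 0.89, and Casp1 0.64 and 0.43, past 1.5-fold in 1 library each. Il1rn reached 0.67 (-0.03 to 1.55) in library 1 but was neither in library 2, at -0.28 (-1.03 to 0.46). Nlrp3, at 0.28 and 0.05, and Il1b, at -0.49 and -0.53, were neither in both libraries. These comparisons were added after the data had been seen.

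**Figure D2:**
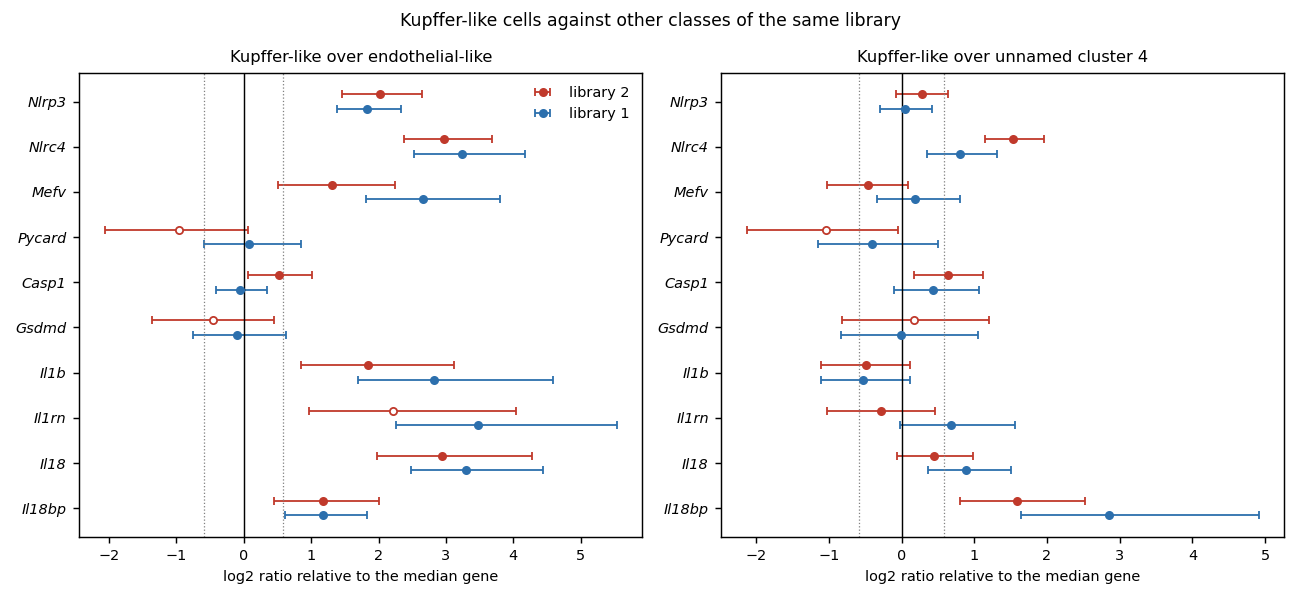
Log2 ratios with exact binomial intervals, relative to the median gene, for Kupffer-like over endothelial-like cells (left) and over cluster 4 (right), library 2 in red above library 1 in blue; dotted lines mark 1.5-fold and open circles mark genes under 50 fragments. Nlrc4 and Il18 lie near 3 against endothelial-like cells, and Nlrc4 and Il18bp lie above the upper line against cluster 4 in both libraries.

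Where the signal lay within the loci was read in 500 bp bins from 10 kb before to 10 kb after each gene. Of 680 bins, 52 held at least 30 fragments of Kupffer-like cells over both libraries, and neighbours joined into 35 open elements, 25 of them centred more than 1 kb from the first gene start. Elements were chosen for Kupffer-like fragments, so that their presence in the class is no result. The choice also tilts their ratios over other classes towards Kupffer-like cells, and stretches open in another class alone could not enter. The fragments were spread over cells, with at most 7 from 1 Kupffer-like cell in any element. Distances below are in kb from the first annotated start, negative upstream.

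Nlrc4 had an inner element with few fragments in cluster 4. It lay at 27.4 kb, chr17:74431255-74432254, and held 84 fragments from 51 Kupffer-like cells of library 2 and 117 from 89 cells of library 1. Cluster 4 had 3 fragments there in library 2 and 2 in library 1, and endothelial-like cells had 3 and 3. The gene start, chr17:74458755-74459754, was open in both classes: 28 and 85 fragments in Kupffer-like cells, and 13 and 14 in cluster 4. Relative to the median gene, Kupffer-like cells exceeded cluster 4 by 4.31 in library 2 and 2.84 in library 1 (log2) at the inner element, and by 0.79 and -0.15 at the start. These elements were chosen for Kupffer-like fragments and singled out after their values were seen, so the contrast to cluster 4 is a description only. An element at 26.1 kb likewise had 13 and 44 fragments in Kupffer-like cells, with 0 and 0 in cluster 4.

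Il18bp, Il18 and Il1rn also had elements with few fragments in cluster 4, under the same one-sided choice. At -7.3 kb from Il18bp, inside Rnf121, chr7:102025074-102026073, Kupffer-like cells had 94 fragments in library 2 and 247 in library 1, against 10 and 8 in cluster 4 and 3 and 6 in endothelial-like cells. The 500 bp element at the Il18bp start was not past 1.5-fold over endothelial-like cells, with log2 ratios of 0.55 in library 2 and 0.58 in library 1. It held 12 and 64 Kupffer-like fragments, against 2 and 0 in cluster 4. Within 500 bp on both sides of the start, the ratio over endothelial-like cells was 0.12 (-1.20 to 1.55) in library 2. In library 1 it was 0.72 (-0.10 to 1.74), past 1.5-fold. An element of Il18 at 12.7 kb had 29 and 64 Kupffer-like fragments, against 4 and 2 in cluster 4. At Il1rn, an element beyond the gene at 18.7 kb had 18 and 73, against 0 and 2 in cluster 4.

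At Il1b and Gsdmd many fragments lay before the gene, wholly or mostly outside its window. The Il1b element lay at -2.4 kb, chr2:129373069-129374068. It held 79 fragments in Kupffer-like cells of library 2 and 190 in library 1, against 2 and 8 in endothelial-like cells. Cluster 4, a class with fewer fragments in all, had 78 and 43. Relative to the median gene, Kupffer-like cells lay below cluster 4 there. The log2 ratios were -0.27 (-0.74 to 0.20) in library 2 and -0.58 (-1.05 to -0.05) in library 1, neither past 1.5-fold. The Il1b start held 12 and 31 Kupffer-like fragments. For Gsdmd, whose strand the tables do not give and whose distances run from its lower coordinate, the element at -4.8 kb held 90 and 288 fragments in Kupffer-like cells, against 3 and 7 in endothelial-like cells. At the Gsdmd end nearest to it the counts were 18 and 58, against 20 and 18 in endothelial-like cells. The window of Gsdmd was not past 1.5-fold in library 1. The log2 ratios over endothelial-like cells at the element were 4.30 for library 2 and 3.48 for library 1. Since the element was chosen for Kupffer-like fragments, these values cannot be set against the ratio of the window. No protein-coding gene lies over that element in the gene table. Cluster 4 was open there as well, with 38.3 CPM in library 2 and 47.2 CPM in library 1, against 34.2 and 52.1 CPM in Kupffer-like cells. The stellate or fibroblast-like class had 18.4 and 20.5 CPM. Over cluster 4, the log2 ratios of Kupffer-like cells at the element were 0.04 (-0.43 to 0.51) in library 2 and 0.23 (-0.25 to 0.78) in library 1, neither past 1.5-fold. Nlrp3 had an element at -3.0 kb with 68 and 178 Kupffer-like fragments, against 6 and 10 in endothelial-like cells.

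**Figure D3:**
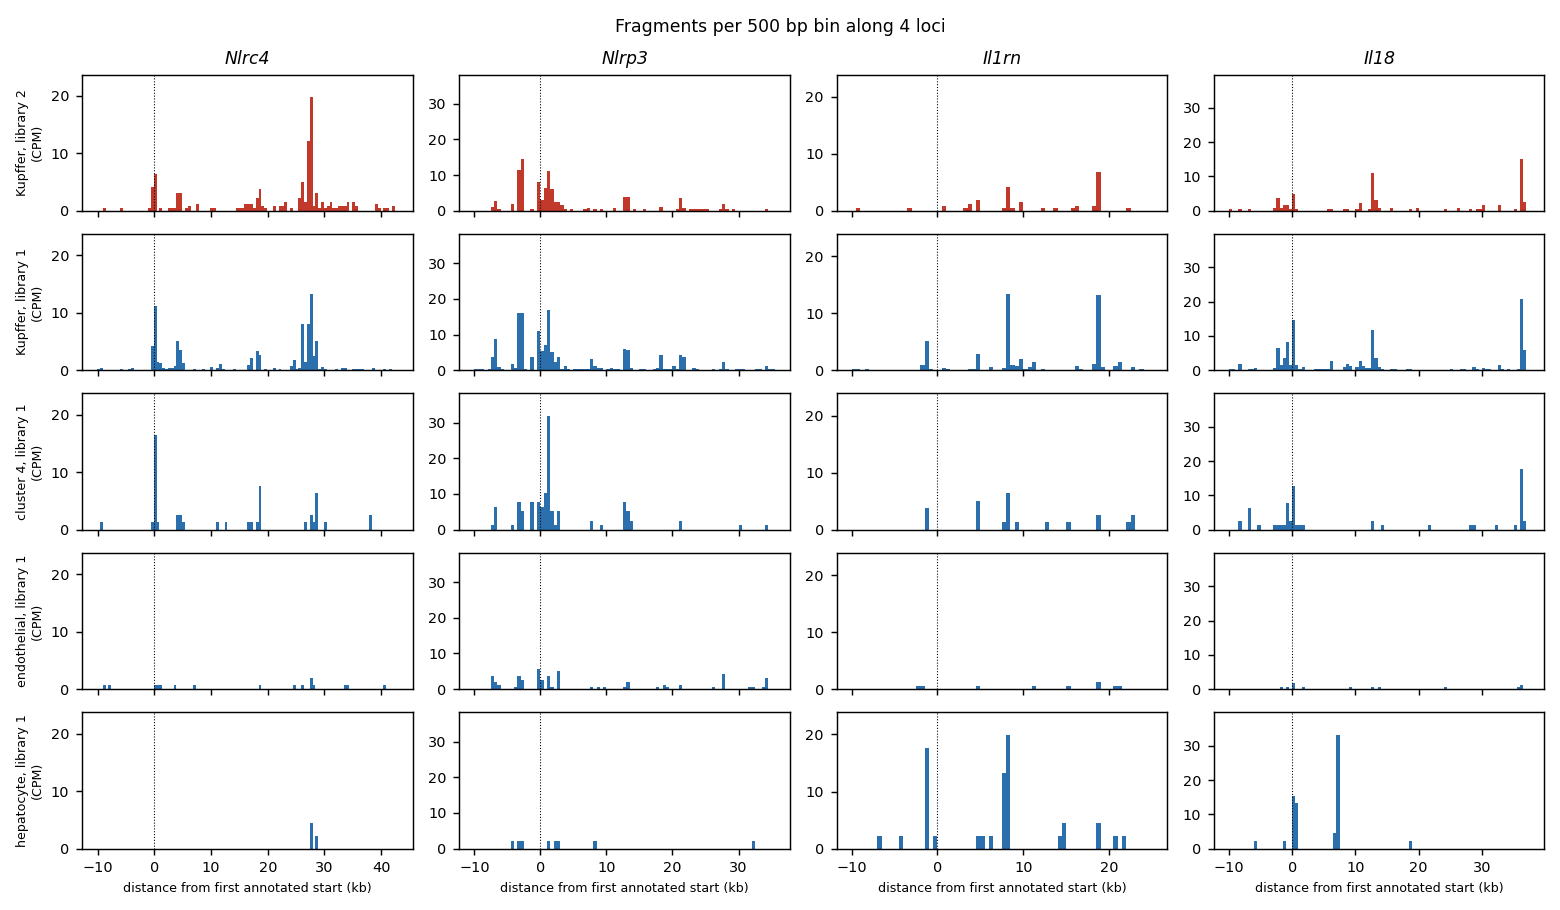
Fragments per 500 bp bin (CPM, vertical axis, same scale within a gene) against distance from the first annotated start (kb, horizontal axis) at 4 loci, for 5 class and library combinations from top to bottom. The Nlrc4 element near 27.4 kb is tall in Kupffer-like cells of both libraries and short in cluster 4, and Il18 has a bin at 7.2 kb in hepatocyte-like cells alone among the tracks drawn.

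Between the libraries, the genes that differed past 1.5-fold in Kupffer-like cells were all lower in library 2. Of the 10 genes, 0 were higher and 5 lower past 1.5-fold relative to the median gene, where 13.9% of all genes were higher and 12.7% lower. The median over the 10 was -0.57. Pycard was lowest at -1.22 (-2.20 to -0.43), then Il1rn at -1.09 (-1.69 to -0.57), Mefv at -0.82 (-1.29 to -0.39), Il18 at -0.79 (-1.16 to -0.45) and Gsdmd at -0.59 (-1.36 to 0.09), whose interval includes 0. Il18bp, at -0.55, Nlrp3, at -0.41, and Il1b, at -0.31, were neither. Casp1, at 0.06, and Nlrc4, at 0.30 (0.07 to 0.53), did not share the direction, and Nlrc4 was 0.06 without the cell of highest count. Mefv was -0.08 when all cells were thinned to 5000 fragments.

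Several properties of the class moved with the library and stand beside these values. Kupffer-like cells had a median of 60.2% of fragments in peaks in library 2, against 74.0% in library 1, and 10.1% of fragments in pile-ups, against 0.461%. The 15 Kupffer markers summed to 1078 CPM (from 1038 to 1118) in library 2, against 1467 CPM (from 1435 to 1499) in library 1, with 1 higher, 4 lower and a median of -0.31. Of the 11 endothelial markers tested in Kupffer-like cells, 6 were higher and 2 lower in library 2, with a median of 0.69, and none of the 14 was at 0. Much of this lay in pile-ups. With them masked Flt4, at 1.38, came to -0.61, and Tek, at 2.23, to 0.58. Gata4, at 0.78, came to 0.05, and Egfl7, at 1.13, to 0.18, so that none of these was past 1.5-fold. Ptprb, at 0.69, came to 0.75 and Robo4, at 0.70, to 0.76, and both stayed past it. The 14 endothelial markers then summed to 417 CPM in library 2, against 481 CPM in library 1. The 8 neutrophil markers summed to 85.9 CPM in library 2, with Camp at 0, against 149 CPM in library 1. The 8 monocyte markers summed to 123 CPM in library 2 and 146 CPM in library 1. The part of these in the differences between the libraries was not tested. The cells were also of different clusters, as given above.

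Other classes offered few fragments for the same comparison. In endothelial-like cells 2 of the 10 genes could be compared, Nlrp3 at -0.63 and Casp1 at -0.55, so that 0 were higher and 1 lower, where 14.3% and 11.2% of all genes were. In cluster 4, 6 could be compared, 0 were higher and 1 lower, where 8.79% and 4.72% of all genes were. The lower one was again Nlrp3, at -0.67 (-1.10 to -0.22). Mefv had -0.20 and Il18 -0.38 in cluster 4, with intervals that included 0. Of the 60 Mefv fragments in cluster 4 of library 2, 20 came from 1 cell, all in a pile-up, and with that cell and the fullest one of library 1 left out the levels were 21.5 CPM in library 2 and 36.8 CPM in library 1. No difference between classes in these ratios was tested.

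By position, the differences between the libraries were uneven along the loci. Of the 35 elements, 11 were lower past 1.5-fold in library 2, 2 were higher and 22 were neither. The median log2 ratio was -0.52 for the 10 elements centred within 1 kb of the first start and -0.40 for the 25 farther away. The elements named here were picked after their values were seen. At the start of Mefv, chr16:3717974-3718473, Kupffer-like cells had 10 fragments in library 2 and 81 in library 1, a log2 ratio of -1.69 (-2.86 to -0.79). An element of Mefv at 18.7 kb had 5 and 79, a ratio of -2.58 (-4.37 to -1.43), while one at 11.5 kb had 20 and 43, a ratio of 0.19 (-0.68 to 0.96). The start of Il18 had 13 and 81, at -1.32 (-2.34 to -0.51), and its element at 12.7 kb had 29 and 64, at 0.14 (-0.56 to 0.78). The start of Il18bp had 12 and 64, at -1.10 (-2.17 to -0.24), and its element at -7.3 kb was at -0.12 (-0.48 to 0.23). Nlrc4 was at 0.80 (0.37 to 1.21) at the element of 27.4 kb and at -0.31 at its start, with an interval that included 0. The elements were chosen on fragments of both libraries, most of which came from library 1, and no like ratios were computed over other loci. The median gene, counted at its start alone, shifted by -0.17 between the libraries, close to the -0.20 of whole windows.

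**Figure D4:**
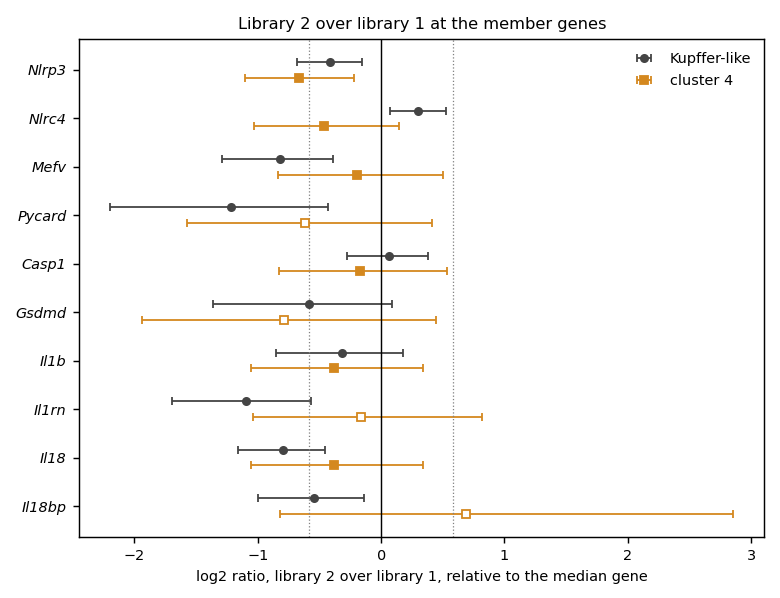
Log2 ratio of library 2 over library 1 relative to the median gene (horizontal axis) with exact binomial intervals, for Kupffer-like cells (circles) and cluster 4 (squares); dotted lines mark 1.5-fold and open symbols mark genes under 50 fragments. In Kupffer-like cells 8 of the 10 points lie below 0, with Casp1 and Nlrc4 above it.

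Of 47 other genes of the pathway, listed with earlier results of these data known, 46 were matched. In library 2, 9 of the 33 with enough fragments were higher in Kupffer-like than in endothelial-like cells and 5 lower, with a median of 0.16, where 19.7% of all genes were higher and 20.3% lower. In library 1, 15 of 37 were higher and 6 lower, with a median of 0.38, where 20.8% and 17.5% of all genes were. Of the sensors and their partners, 5 of 12 were higher in library 2 and 9 of 16 in library 1, with 0 and 2 lower. Naip1 and Naip2, whose proteins bind bacterial ligands and hand them to NLRC4, had log2 ratios of 1.13 and 0.96 in library 2, and 2.44 and 1.91 in library 1; Naip2 was named after its values were seen. The NAIP genes are near-identical copies, so that fragments could be split among them. Pstpip1, whose protein binds pyrin, had 1.04 in library 2 and 2.16 in library 1. Irak3, a brake on IL-1 receptor signalling, had 1.87 and 1.09. Nlrp1b, a sensor of bacterial proteases, had 1.52 in library 2, or 0.99 with pile-ups masked, and 1.40 in library 1. Gsdme, a pore former, had 1.92 in library 1.

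Of the 6 receptor genes with enough fragments, 2 were higher and 3 lower in each library, too few to set against those shares. Sigirr, an inhibitory receptor of the family, had -1.95 in library 2 and -1.47 in library 1, and Il1r1, the signalling IL-1 receptor, had -1.41 and -1.29. Il33, an IL-1 family alarmin, had -1.22 and -0.71, and Nlrc3 had -1.28 in library 1. Il1rap, the shared receptor subunit, had 1.43 in library 2, or 0.71 with pile-ups masked, and 0.27 in library 1. Between the libraries in Kupffer-like cells, 1 of 38 was higher and 7 lower, with a median of -0.33, where 13.9% of all genes were higher and 12.7% lower. The highest were Il1rap at 1.11, or 0.46 with pile-ups masked, Tollip at 0.54 and Ninj1 at 0.41. The lowest were Nlrp1a at -1.03, Gsdme at -0.92 and Casp12 at -0.82. In endothelial-like cells the highest were Panx1 at 1.05, or 0.39 with pile-ups masked, Pstpip1 at 0.68 and Gsdme at 0.58, and the lowest were P2rx7 at -1.14, Nlrc5 at -0.94 and Casp8 at -0.93.

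**Figure D5:**
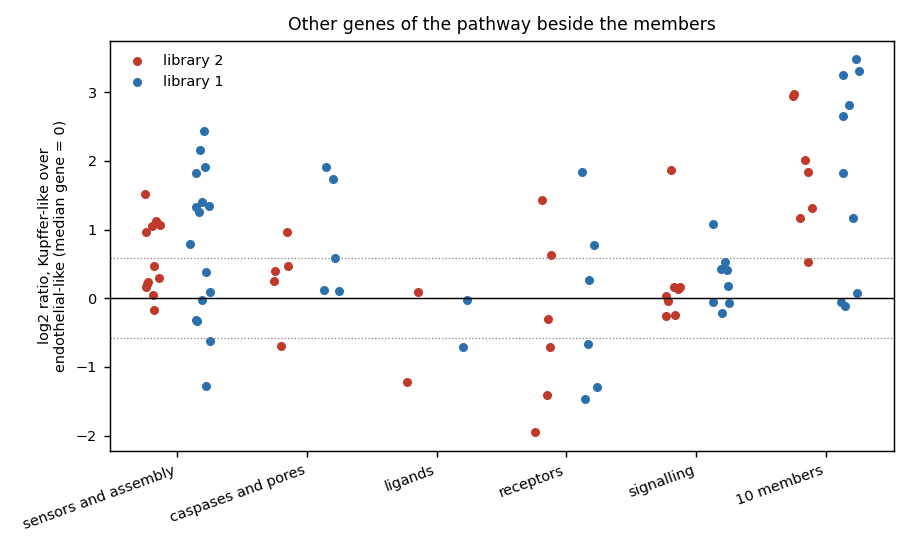
Log2 ratio of Kupffer-like over endothelial-like cells (vertical axis, median gene at 0) for the other pathway genes by group and for the 10 genes at the right, library 2 in red left of library 1 in blue, each point 1 gene with at least 50 fragments. The 10 genes reach the highest values in both libraries. Among the other groups the sensors reach highest in library 1, at 2.44, and signalling in library 2, at 1.87 for Irak3. The receptors include the lowest, at -1.95 for Sigirr.

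The genes whose levels ran most like those of Nlrc4 over 10 class and library combinations were Arg2, Rab39, 4930503B20Rik, P2ry13 and Mmp8, among 14648 genes compared. Arg2 had a Pearson correlation of log2(CPM + 1) of 0.976, and 78.3 CPM in Kupffer-like cells of library 2 and 86.0 CPM in library 1, against 4.42 and 8.72 CPM in endothelial-like cells. The points share libraries and depth, and the order is a description.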

How the data were processed

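Per the labels' protocols, nuclei went through droplet-based single-cell ATAC sequencing. Cell Ranger ATAC 1.2.0, R 3.6.1, Seurat and Signac 0.2.4 and the build GRCm38.p5 are named in the submitters' processing notes. The authors deposited counts of read pairs per unique fragment for both libraries together, with totals for each barcode and a call of cell or not; how cells were called is not stated. Each unique fragment was counted once.

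Of the authors' cells, those kept had 1000 or more fragments in peaks, making up 15% or more of their fragments, with no more than 5% in blacklisted regions. Fragments in 5 kb bins seen in at least 10 cells, without bins within 50 kb of a gene described, went through TF-IDF weighting and a singular value decomposition with 30 components (scikit-learn 1.9.0), of which 29 entered a graph of 20 neighbours and Leiden clustering at resolution 0.5 (leidenalg 0.10.2). Clusters were named from 14 marker lists. A further rule was added after the data were seen. With pile-ups masked, a marker of the name had to be among the 10 leading genes, and no other list could have more. This rule removed the name of cluster 4, while cluster 3 had no name before it. With pile-ups kept, clusters 2 and 6 of the Kupffer-like class had no Kupffer marker among their 10 leading genes. Overlap doublets (87 cells in library 2, 69 in library 1) were kept.

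Windows were gene bodies with 2 kb on both sides, from a RefSeq table of GRCm38.p6. Levels have exact Poisson intervals at 95%. Ratios have exact binomial intervals conditional on the sum of both counts, and 0.5 was added to each count for the point value. Fragments amplified from the same cell are not independent, so intervals are too narrow where 1 cell holds many. No p-value is given. The genes, lists and rules were chosen with earlier results of these data known: all 10 genes were named, with the 3 highest and 3 lowest other pathway genes of each planned comparison. The ratio was checked on simulated data. Comparisons with cluster 4, and the alternatives of the annotated start, of cluster 6 left out and of the cell with most fragments left out, were added after the data were seen.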

Additional observations from a re-analysis of the deposited data

How the results depend on the processing

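Of the values of single genes under 15 alternatives, 377 stayed within the main interval, 43 moved out of it and 4, of genes past 1.5-fold, changed sign. All 4 were Il1rn, whose open start is internal, in narrow windows at the gene ends: -0.11 for Kupffer-like over endothelial-like cells of library 1 at both ends, and 0.90 at both ends, 0.40 at the fuller end and 0.40 at the annotated start for library 2 over library 1, each with under 50 fragments. Genes not past 1.5-fold also crossed 0: for library 2 over library 1 in Kupffer-like cells Il1b ran from -0.54 to 0.30, Nlrc4 from -0.42 to 0.40 and Casp1 from -0.32 to 0.20, and for Kupffer-like over endothelial-like cells of library 1 Gsdmd ran from -0.39 to 0.14 and Casp1 from -0.34 to 0.33. The count of genes higher in Kupffer-like than in endothelial-like cells of library 2, 6 of 7, was 3 of 3 with cells thinned, 2 of 3 at both ends, and 2 of 2 at the fuller end or the annotated start, in each case with Casp1, which is not among the 6; 0 lower became 1 with insertions or no minimum of fragments. The 5 genes lower in library 2 in Kupffer-like cells became 3 with cells thinned, of 7. In endothelial-like cells, 0 higher became 1 with no minimum, and 1 lower became 3 with no minimum and 0 with no cell filter, cells of at least 50% in peaks, thinned cells, marker classes, gene bodies or masked pile-ups. Fewer fragments enter the narrow windows and thinned cells by construction; the cause was not tested for the others. The share of Kupffer-like cells was 32.2% in library 2 and 52.7% in library 1 at Leiden resolution 1 as well. It was 31.5% and 51.3% with no cell filter, and 33.3% and 45.5% with classes from marker fragments alone. No paired analysis was possible because each library stands alone. The minimum of 50 fragments limits what could be compared in small classes.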

Other observations

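The genes of the IL-18 receptor were less open in Kupffer-like cells than in cluster 4 where fragments allowed a ratio. Il18r1, the ligand-binding subunit, held 12 fragments in Kupffer-like cells of library 2 and 40 in those of library 1, against 63 and 31 in the smaller cluster 4. The log2 ratios of Kupffer-like over cluster 4 were -2.63 in library 2 and -2.35 in library 1. Il18rap, the accessory subunit, had 10 fragments in Kupffer-like cells of library 2 and 85 in cluster 4, which gave -3.31 (-1.95 once pile-ups were masked), and too few fragments in library 1. Il18rap was among the 10 leading genes of cluster 4 with pile-ups kept, but not with pile-ups masked. Sigirr, which restrains signalling by the family, had -1.92 and -1.52. Of the 8 receptor genes with enough fragments in library 2, 1 was higher and 5 were lower in Kupffer-like cells, where 16.8% of all genes were higher and 16.5% lower. Of 7 in library 1, 0 were higher and 3 lower, where 14.2% and 10.1% of all genes were. Marker lists of several other cell types were also lower in Kupffer-like cells. The 9 T cell markers summed to 76.8 CPM in Kupffer-like cells of library 2 and 86.9 CPM in those of library 1, against 147 and 159 CPM in cluster 4, and the 6 NK cell markers to 18.6 and 30.2 CPM, against 45.7 and 42.1 CPM. The monocyte markers summed to 123 and 146 CPM, against 253 and 287 CPM, the dendritic cell markers to 221 and 341 CPM, against 479 and 510 CPM, and the basophil or mast cell markers to 36.5 and 51.8 CPM, against 119 and 95.6 CPM. None of the T and NK cell markers was at 0 in either class, and the part of these lists in the receptor values was not tested.

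Il33, Ninj1 and Il1a stood higher in Kupffer-like cells than in cluster 4. In library 2, 5 of 38 other pathway genes were higher and 8 lower, where 16.8% of all genes were higher and 16.5% lower. In library 1, 6 of 39 were higher and 4 lower, where 14.2% and 10.1% of all genes were. Il33, an alarmin, had log2 ratios of 1.10 in library 2 and 1.95 in library 1. Ninj1, whose protein ruptures the membrane of dying cells, had 1.14 and 1.03, and Il1a, the other IL-1 agonist, had 0.93 and 0.96. Il33 was lower in Kupffer-like than in endothelial-like cells, as given above. Of the endothelial markers tested against cluster 4, 7 of 9 were higher and 1 lower in library 2, and 5 of 10 were higher and 2 lower in library 1. They summed to 489 and 481 CPM in Kupffer-like cells, against 240 and 228 CPM in cluster 4. The part of this list in the values was not tested. The genes named here were chosen after their values were seen.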
